A study of Mus musculus with 48 samples.

Results

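The interferon-induced and major histocompatibility complex (MHC) genes analysed here are 93 of the 24466 genes in the deposited table of the Polycomb mark H3K27me3. They were chosen by symbol, as the genes named Ifitm, Ifit, Oas, Gbp, Irf, Isg15, Isg20, Mx, H2-, B2m, Tap, Psmb8, Psmb9, Ciita and Nlrc5. Of these, 43 carry an H2- name and 50 do not. The series is a chromatin immunoprecipitation sequencing (ChIP-seq) study of mouse liver and pancreas development, in which antibody-bound DNA fragments are set against an input library. H3K27me3 was measured in hepatocytes of adults aged 8 weeks, in beta cells of the same age sorted as RFP+, and in definitive endoderm sorted as ENDM1+ from embryos at e8.25, the baseline of the series. Each cell type had 2 ChIP and 2 input libraries. Embryos came from superovulated B6C3F1 females bred to C3H, Pdx1-eGFP or Ins-RFP males. For the adult hepatocytes, the sources used here give neither strain nor isolation. Strain and cell type thus cannot be told apart in the differences between these hepatocytes and endoderm or beta cells. The strains of beta cells and endoderm are not shown to match either, and the part of strain was not tested.

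The deposited values are ratios of H3K27me3 to input, 1 value per gene and cell type, quantile-normalized by the authors. No replicate error exists for any value, read depth is unknown, and no p-value can be given. Quantile normalization gives all columns the same set of values, so a ratio is a place among the genes of 1 cell type. The median ratio is 0.711, and a rank percentile of 75 is at 1.27. Differences were taken as log2(ratio + 0.0711), and a gene is called higher or lower where it differs by at least 1 on this scale, a 2-fold difference. Both comparisons with endoderm use the same endoderm column.

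H3K27me3 is laid down by Polycomb repressive complex 2 and marks genes held silent, often at promoters rich in CpG. MHC class I molecules are on most nucleated cells and show peptides from inside the cell to cytotoxic T cells. They need B2m as light chain, the TAP transporter to bring peptides into the endoplasmic reticulum, and, under interferon, immunoproteasome subunits. MHC class II molecules are made mainly by professional antigen-presenting cells. Interferons induce most of these genes through IRF factors and STAT proteins, which bind interferon-stimulated response elements (ISRE) and gamma-activated sites (GAS) in promoters.

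Promoter windows of 300 bases, 250 before and 50 after the annotated start, are shown for genes on which the results below turn. They are RefSeq sequences of build GRCm38.p6, while the ratios were made on mm9. Capitals mark the ISRE letters GAAANNGAAA on either strand. The Tap1 window is shown because it shares 275 bases with the window of Psmb9 on the opposite strand, the B2m window for the light chain, the Ifitm3 and Isg15 windows for genes highly marked in beta cells, and the H2-T22 window for a gene lower in hepatocytes.
Tap1 (chr17:34187306-34187605, plus strand): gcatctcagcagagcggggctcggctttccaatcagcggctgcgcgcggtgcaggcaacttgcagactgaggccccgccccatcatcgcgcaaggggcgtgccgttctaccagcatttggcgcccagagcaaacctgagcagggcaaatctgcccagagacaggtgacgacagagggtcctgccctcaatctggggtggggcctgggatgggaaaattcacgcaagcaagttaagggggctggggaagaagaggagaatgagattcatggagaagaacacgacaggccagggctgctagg
B2m (chr2:122147437-122147736, plus strand): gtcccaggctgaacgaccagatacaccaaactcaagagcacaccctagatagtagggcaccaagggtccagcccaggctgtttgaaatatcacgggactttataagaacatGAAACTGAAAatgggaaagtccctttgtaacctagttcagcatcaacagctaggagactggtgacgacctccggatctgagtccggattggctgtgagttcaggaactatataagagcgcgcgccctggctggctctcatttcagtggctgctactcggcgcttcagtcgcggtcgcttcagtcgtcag
H2-T22 (chr17:36042693-36042992, minus strand): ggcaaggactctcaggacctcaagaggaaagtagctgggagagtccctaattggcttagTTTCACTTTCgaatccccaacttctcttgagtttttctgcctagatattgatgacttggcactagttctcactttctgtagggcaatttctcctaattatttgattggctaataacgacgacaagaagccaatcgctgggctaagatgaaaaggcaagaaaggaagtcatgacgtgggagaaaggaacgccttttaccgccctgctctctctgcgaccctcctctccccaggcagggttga
Ifitm3 (chr7:141010695-141010994, minus strand): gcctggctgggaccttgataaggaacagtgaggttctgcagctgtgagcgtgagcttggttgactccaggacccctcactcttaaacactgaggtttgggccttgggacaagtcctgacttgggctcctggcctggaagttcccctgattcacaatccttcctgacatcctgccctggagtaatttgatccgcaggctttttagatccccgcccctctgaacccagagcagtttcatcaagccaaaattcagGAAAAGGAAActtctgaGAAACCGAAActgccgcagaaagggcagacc
Isg15 (chr4:156200769-156201068, minus strand): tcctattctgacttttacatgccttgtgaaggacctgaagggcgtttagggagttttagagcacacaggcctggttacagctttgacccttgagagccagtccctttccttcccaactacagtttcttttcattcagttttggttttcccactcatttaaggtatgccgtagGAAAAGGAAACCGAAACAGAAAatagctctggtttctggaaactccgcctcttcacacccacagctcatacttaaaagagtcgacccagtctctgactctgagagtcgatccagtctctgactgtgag

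B2m held 1 ISRE match, which began 139 bases before the start, and H2-T22 held 1, which began 191 bases before it. Isg15 held 3 overlapping matches, the first 78 bases before the start. Ifitm3 held 2, which began at bases 3 and 20 counted from the start, and 1 GAS. The Tap1 window held no match to ISRE or to the GAS letters TTCNNNGAA. Of all 32851 promoter windows in the table, 3.44% held an ISRE and 8.30% a GAS. Only 65 of the 93 genes, 69.9%, had a window, so a comparison of motif or CpG content over the whole group is void. Of these 65, 17 held an ISRE and 14 a GAS in the first-listed window, so the windows shown do not stand for the group. The ratio of observed to expected CpG was 0.549 for Tap1, 0.682 for B2m, 0.469 for H2-T22, 0.377 for Isg15 and 0.238 for Ifitm3, where the median of all windows was 0.384. Tap1, B2m and H2-T22 were above that median, and Isg15 and Ifitm3 below it.

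In hepatocytes against endoderm, 34 of the 93 genes were lower and 12 higher. Over all genes 13.3% were lower and 12.8% higher, against 36.6% and 12.9% of the 93. The median difference was -0.57, beside -0.03 over all genes. In beta cells against endoderm, 21 were lower and 12 higher (22.6% and 12.9%), where all genes gave 15.1% and 14.1%. The median difference was -0.08, beside -0.01. Between the adult cell types, 27 had lower hepatocyte ratios and 6 had higher ones (29.0% and 6.45%), where all genes gave 12.5% and 13.1%. The share of lower genes was thus above the background in each of these comparisons. The share of higher genes was near the background against endoderm and below it between the adult cell types.

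**Figure D1:**
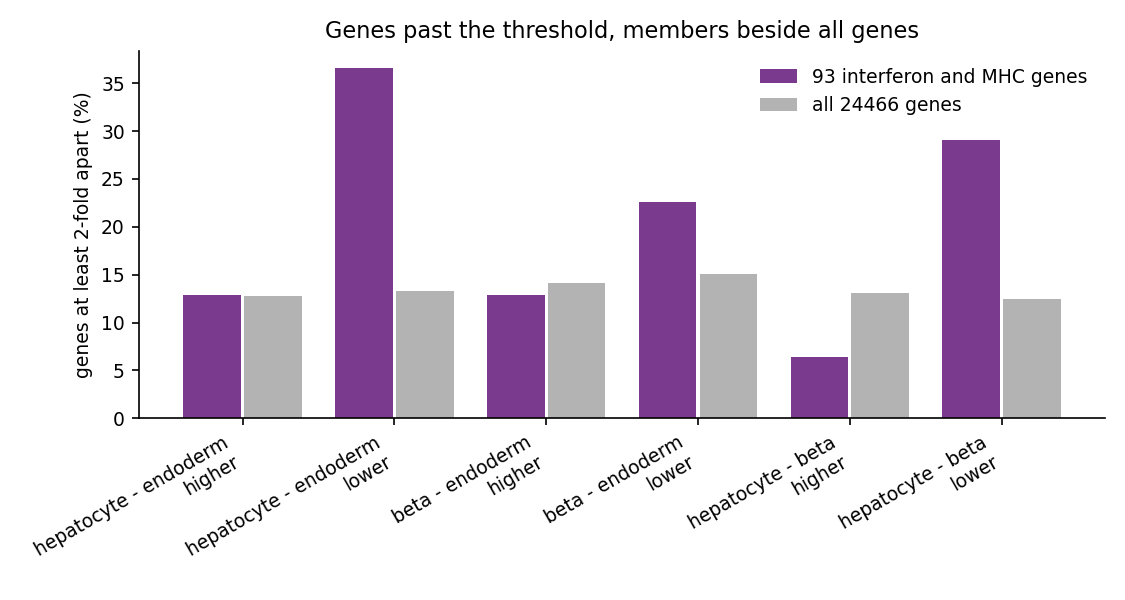
Percent of genes at least 2-fold higher or lower in each comparison, for the 93 interferon-induced and MHC genes (purple) and for all 24466 genes (grey). The lower bars of the 93 genes reach 36.6%, 22.6% and 29.0%, beside 13.3%, 15.1% and 12.5% of all genes.

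These counts depend on the scale against endoderm. When each column was divided by its most frequent value, the median difference of all genes moved up by 0.41 in hepatocytes and by 0.39 in beta cells. Lower genes then numbered 26 of 93 in hepatocytes and 14 in beta cells, where all genes gave 7.77% and 9.62%. Higher genes numbered 16 and 22, where all genes gave 21.4% and 23.4%. Of the called genes among the 93, 38.1% were then higher in hepatocytes, in place of 26.1%, and 61.1% in beta cells, in place of 36.4%. Between hepatocytes and beta cells the counts were 27 lower and 6 higher, where all genes gave 12.3% and 13.4%. By family against endoderm, the antigen processing genes were lower at 5 of 5 in each adult cell type on either scale. The median changed sign, below 0 as deposited and above 0 after division, for the Ifit genes and the H2-T, H2-M and H2-Bl genes in both adult cell types, and for the Irf genes and the Mx and Isg genes in beta cells. The calls lost after division included Gbp7, H2-Q7, H2-Q9, Ifit3, Isg20, Mx2 and Nlrc5 in hepatocytes, and Gbp3, H2-M10.5, H2-Q4, H2-Q6, H2-Q8 and Ifit3 in beta cells. The calls gained, all higher, were H2-Ob, Ifitm6, Oas2 and Oas3 in hepatocytes, and Gbp11, H2-Ke6, H2-M2, H2-M10.1, H2-M10.4, H2-Ob, Irf8, Irf9, Oas1f and Oas1g in beta cells.

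The labels were checked on marker genes of each lineage, most of them transcription factors. Of 10 beta cell factors, 9 had higher ratios in hepatocytes than in beta cells and 0 had lower ones (median 3.51), and of 10 hepatocyte factors 6 were lower and 0 higher (median -1.81). Of 8 endoderm markers, 5 were lower and 2 higher in hepatocytes than in endoderm, and in beta cells 2 were lower and 1 higher. All genes gave 13.3% lower and 12.8% higher in hepatocytes, and 15.1% and 14.1% in beta cells. Sox17 was higher in hepatocytes (7.05 in hepatocytes and 1.42 in endoderm), while Foxa1 was among the lower (1.78 in hepatocytes and 72.6 in endoderm), with Foxa2, Gata4, Gata6 and Cer1. Most endoderm markers thus did not have their lowest ratio in endoderm, and this list does not bear out the endoderm label. Since many genes studied here are active in blood cells, markers of blood and immune cells were read beside them. The summed ratios of the 16 markers were 23.9 in hepatocytes, 28.0 in beta cells and 24.5 in endoderm. Against endoderm, 1 of the 16 had a higher ratio in hepatocytes and 0 had a lower one, and in beta cells 3 were higher and 2 lower. None was at 0, and the lowest was Cd68 in endoderm (0.224). In a mixed sample, fewer cells that carry the mark and less of it per cell cannot be told apart, and the part of blood cells in the results was not tested. Of 10 endothelial markers 0 were called in hepatocytes, and in beta cells 1 was higher and 1 lower. Of 9 fibroblast and stellate cell markers 1 was higher in hepatocytes and 1 lower in beta cells. The counts of blood, endothelial, fibroblast and stellate cell markers were thus near or under the shares of all genes.

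**Figure D2:**
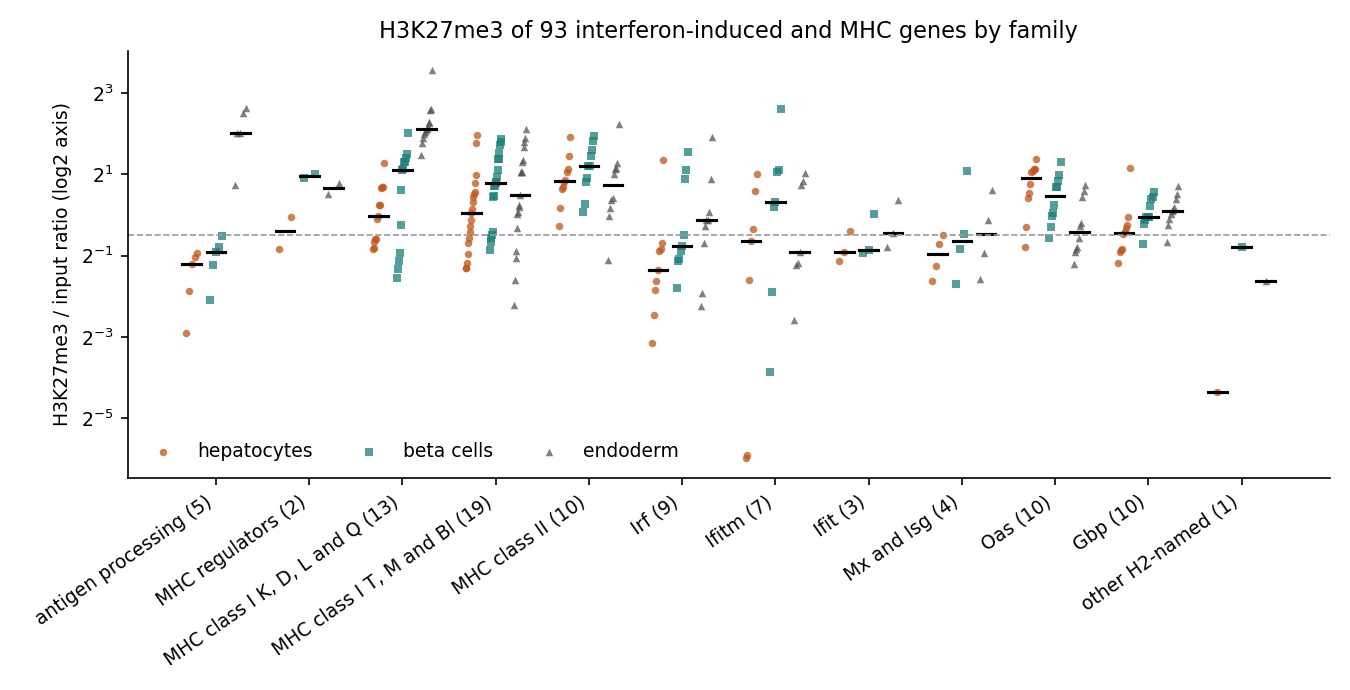
H3K27me3 to input ratio of each of the 93 genes on a log2 axis, by family (number of genes in brackets), in hepatocytes (circles), beta cells (squares) and endoderm (triangles). Black bars are medians and the dashed line is the median of all genes, 0.711. The antigen processing genes lie above that line in endoderm (1.67 to 6.21) and below it in both adult cell types (at most 0.702).

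The peptide supply of class I was highly marked in endoderm and weakly marked in both adult cell types. Tap1, a subunit of the peptide transporter, had ratios of 0.271 in hepatocytes, 0.236 in beta cells and 5.69 in endoderm. Its partner subunit Tap2 had 0.433 in hepatocytes, 0.702 in beta cells and 4.05 in endoderm. Both adult values of each gene lay under the median of all genes, while the endoderm values were above a rank percentile of 90. The Tap1 differences were -4.07 for hepatocytes and -4.23 for beta cells against endoderm, and 147 and 177 of the 24466 genes had differences as low or lower. Psmb8, an immunoproteasome subunit, had 0.489 in hepatocytes, 0.580 in beta cells and 6.21 in endoderm, and Psmb9, another such subunit, had 0.520 in hepatocytes, 0.426 in beta cells and 4.07 in endoderm. B2m, the class I light chain, had 0.133 in hepatocytes, 0.536 in beta cells and 1.67 in endoderm. It lies on another chromosome than the other members of this family, and its endoderm ratio was the lowest of the family. Of these 5 genes, 5 were lower in hepatocytes and 5 in beta cells than in endoderm, with median differences of -3.09 and -3.06. Between the adult cell types, B2m alone of the 5 was called, at -1.57.

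Psmb9, Tap1, Psmb8 and Tap2 stand side by side in the annotation, between the class II genes H2-DMb1 and H2-Ob. H2-DMb1 had 1.76 in hepatocytes, 3.03 in beta cells and 2.20 in endoderm, and H2-Ob had 2.07 in hepatocytes, 2.31 in beta cells and 1.13 in endoderm. Neither was called in any comparison as deposited, while after division H2-Ob was higher in hepatocytes (1.27) and in beta cells (1.40) than in endoderm. The low adult values had genes with high adult ratios on both sides.

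The classical class I heavy chains had high endoderm ratios and lower adult ones, which in hepatocytes lay on both sides of the median of all genes. H2-K1 had ratios of 0.569 in hepatocytes, 0.398 in beta cells and 4.46 in endoderm. H2-D1 had 0.928 in hepatocytes, 0.456 in beta cells and 3.96 in endoderm. The neighbouring H2-K2 had 0.629 in hepatocytes, 0.340 in beta cells and 4.81 in endoderm, and H2-L had 0.988 in hepatocytes, 0.520 in beta cells and 4.14 in endoderm. All 4 were above a rank percentile of 90 in endoderm and were lower in both adult cell types, with differences of -1.99 to -2.83 in hepatocytes and of -2.83 to -3.57 in beta cells. None of them was called between the adult cell types, where their differences ran from 0.45 to 0.92. Reads may be shared among these related genes, so the 4 need not be separate observations.

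The non-classical H2-Q genes had high endoderm ratios as well, while the adult cell types differed from each other. Their endoderm ratios ran from 2.77 at H2-Q2 to 11.8 at H2-Q5, the highest ratio among the 93 genes. Against endoderm, 8 of 9 were lower in hepatocytes and 5 of 9 in beta cells, where all genes gave 13.3% and 15.1%. After division H2-Q7 and H2-Q9 lost this call in hepatocytes, and H2-Q4, H2-Q6 and H2-Q8 lost it in beta cells. Between the adult cell types, 5 of 9 were lower in hepatocytes and 0 higher, where all genes gave 12.5% and 13.1%. H2-Q10, a secreted class I molecule of liver, had ratios of 0.563 in hepatocytes, 4.08 in beta cells and 4.88 in endoderm, a difference of -2.71 between the adult cell types. H2-Q1 had 0.662 in hepatocytes, 2.65 in beta cells and 3.70 in endoderm. H2-Q5 had 2.43 in hepatocytes, 2.82 in beta cells and 11.8 in endoderm, and H2-Q4 had 0.661 in hepatocytes, 1.52 in beta cells and 3.42 in endoderm. H2-Q8 had 1.18 in hepatocytes, 2.45 in beta cells and 6.10 in endoderm, and H2-Q7 had 1.61 in hepatocytes, 2.18 in beta cells and 4.25 in endoderm. H2-Q2 went the other way between the adult cell types without being called, with 1.59 in hepatocytes and 0.840 in beta cells. H2-Q6 and H2-Q8 differed by at most 1.66% in every column, and H2-Q7 and H2-Q9 by at most 2.11%, so each of these pairs cannot be separated.

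H2-T genes and H2-Bl were lower in hepatocytes at 4 of 7, and at 0 of 7 in beta cells, against endoderm, where all genes gave 13.3% and 15.1%. H2-T10 had ratios of 0.443 in hepatocytes, 2.89 in beta cells and 4.35 in endoderm, and H2-T22, a relative that gamma-delta T cells recognise, had 0.407 in hepatocytes, 1.63 in beta cells and 2.09 in endoderm. H2-Bl had 0.826 in hepatocytes, 3.29 in beta cells and 3.21 in endoderm. These genes were at high ratios in beta cells and endoderm and near or under the median of all genes in hepatocytes. The H2-T9 values equal those of H2-T22 within 0.0196% in each column, and the pair was counted as separate symbols. H2-T23, which encodes the ligand Qa-1 of natural killer receptors, had 0.516 in hepatocytes, 0.681 in beta cells and 0.804 in endoderm, and H2-T24 had 0.745 in hepatocytes, 0.743 in beta cells and 1.02 in endoderm. H2-T3, the thymus leukaemia antigen of intestinal epithelium, was high throughout, with 3.39 in hepatocytes, 2.59 in beta cells and 3.73 in endoderm.

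The 12 H2-M genes gave no such pattern. Against endoderm, hepatocytes had 3 of them higher and 0 lower, and beta cells 3 higher and 1 lower. All genes gave 12.8% higher and 13.3% lower in hepatocytes, and 14.1% and 15.1% in beta cells. H2-M11 had 0.681 in hepatocytes, 2.17 in beta cells and 0.216 in endoderm, and H2-M1 had 0.918 in hepatocytes, 1.73 in beta cells and 0.329 in endoderm. H2-M10.6 had 1.24 in hepatocytes, 1.37 in beta cells and 0.539 in endoderm, and these 3 were the genes called higher in both adult cell types. The hepatocyte value of H2-M1 is the most frequent value of its column, shared by 357 genes. H2-M10.5, of a group known from the vomeronasal organ, was lower in beta cells, with 1.99 in hepatocytes, 0.551 in beta cells and 1.40 in endoderm. H2-M3, which presents formylated peptides, had 0.623 in hepatocytes, 0.710 in beta cells and 0.478 in endoderm, all near or under the median of all genes. Between the adult cell types, H2-M10.3 (1.44 in hepatocytes, 0.636 in beta cells and 1.14 in endoderm) was higher in hepatocytes, as was H2-M10.5. H2-M10.4 (1.04 in hepatocytes, 3.64 in beta cells and 2.07 in endoderm) and H2-M9 (1.35 in hepatocytes, 3.45 in beta cells and 2.58 in endoderm) were lower there, as was H2-M11. H2-M2, H2-M10.1 and H2-M10.2 were called in no comparison and ran from 1.06 (H2-M10.1 in endoderm) to 2.46 (H2-M10.2 in endoderm). H2-M5 was high in every cell type, with 3.89 in hepatocytes, 2.61 in beta cells and 3.45 in endoderm.

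**Figure D3:**
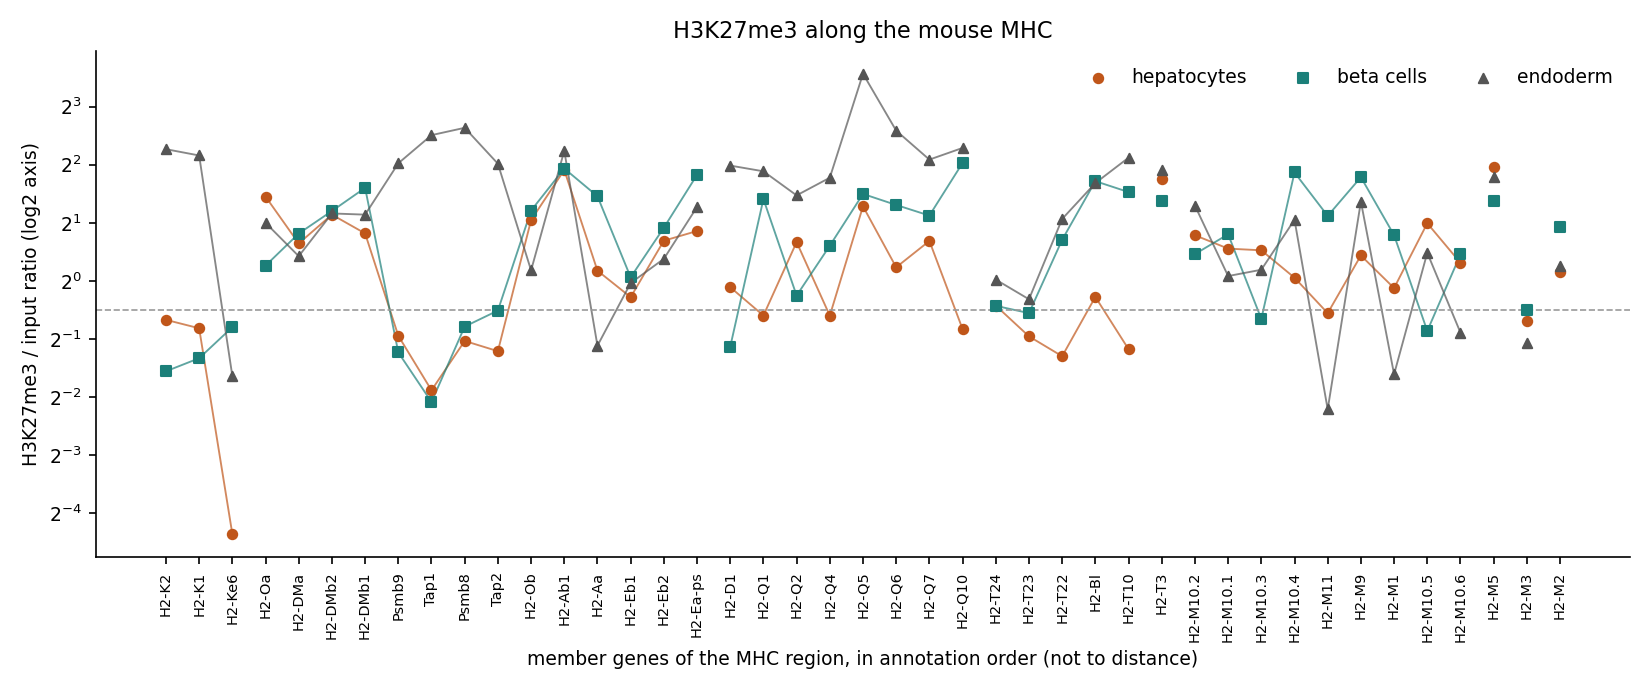
H3K27me3 to input ratio (log2 axis) of the genes of the MHC region in annotation order, with equal spacing, in hepatocytes (circles), beta cells (squares) and endoderm (triangles); lines join genes with at most 5 annotated genes between neighbours. From Psmb9 to Tap2 both adult profiles drop under the dashed median of all genes (0.711), while H2-DMb1 on one side and H2-Ob on the other lie above it.

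Most class II genes carried high ratios in all cell types. Their medians were 1.79 in hepatocytes, 2.31 in beta cells and 1.67 in endoderm, and 8, 8 and 7 of 10 were at a rank percentile of at least 75 in those columns. H2-Ab1, a beta chain, had 3.76 in hepatocytes, 3.82 in beta cells and 4.72 in endoderm. H2-DMb2, of the peptide-loading factor DM, had 2.20 in hepatocytes, 2.30 in beta cells and 2.24 in endoderm. As deposited, no class II gene was lower than in endoderm in either adult cell type. All genes gave 13.3% lower in hepatocytes and 15.1% in beta cells, so 0 of 10 is near those shares. A gene that did differ was H2-Aa, the alpha chain partner of H2-Ab1, with 1.13 in hepatocytes, 2.74 in beta cells and 0.462 in endoderm, which was higher in both adult cell types and lower in hepatocytes than in beta cells. H2-Oa, of the DM inhibitor DO, was higher in hepatocytes than in beta cells, with 2.73 and 1.20, and had 2.00 in endoderm. The remaining members, H2-DMa, H2-Eb1, H2-Eb2 and H2-Ea-ps, were not called in any comparison and ran from 0.824 (H2-Eb1 in hepatocytes) to 3.54 (H2-Ea-ps in beta cells).

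The transcriptional activators of the MHC genes were lower in hepatocytes than in beta cells. Nlrc5, the activator of class I genes, had ratios of 0.560 in hepatocytes, 1.89 in beta cells and 1.43 in endoderm. Ciita, the master activator of class II genes, had 0.959 in hepatocytes, 2.02 in beta cells and 1.73 in endoderm. Against endoderm, Nlrc5 was lower in hepatocytes (-1.25), while Ciita in hepatocytes (-0.81) and both genes in beta cells were under the threshold. H2-Ke6, which has an H2- name but encodes the steroid dehydrogenase Hsd17b8, had 0.0489 in hepatocytes, 0.576 in beta cells and 0.322 in endoderm.

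Genes of the same region that are not among the 93 were read as a local background. Between H2-K2 and H2-M2 in annotation order, the table held 151 such genes, of which 27 were lower and 25 higher in hepatocytes than in endoderm, with a median difference of -0.08. In beta cells 25 were lower and 34 higher (median 0.02). Of the 43 interferon and MHC genes placed in the same interval, 17 were lower and 4 higher in hepatocytes (median -0.49), and 12 were lower and 4 higher in beta cells (median -0.35). Gene order is from GRCm38.p6. H2-L and H2-T9 were not matched in that annotation, and the table set H2-Q8 and H2-Q9 outside the interval.

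Of the interferon regulatory factors, 3 of 9 were lower and 1 higher in hepatocytes than in endoderm, and 4 were lower in hepatocytes than in beta cells with 0 higher. All genes gave 13.3% lower and 12.8% higher against endoderm, and 12.5% and 13.1% against beta cells. Irf5, an activator of inflammatory cytokine genes in macrophages, had the largest difference of the family, with ratios of 0.391 in hepatocytes, 2.92 in beta cells and 3.76 in endoderm. It stood at rank percentile 16.5 in hepatocytes, 94.2 in beta cells and 96.2 in endoderm. Irf1, an activator induced by interferon gamma, had 0.183 in hepatocytes, 0.585 in beta cells and 0.911 in endoderm. Irf8, a factor of myeloid and B cells, had 0.619 in hepatocytes, 1.83 in beta cells and 1.05 in endoderm and was called between the adult cell types (-1.47).

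Irf3, which is activated by virus sensing, had ratios of 0.113 in hepatocytes, 0.714 in beta cells and 0.263 in endoderm. It was higher in beta cells than in endoderm (1.23) and lower in hepatocytes than in beta cells (-2.09). Irf9, the DNA-binding part of a complex that answers type I interferon, had 0.557 in hepatocytes, 0.470 in beta cells and 0.211 in endoderm, higher in hepatocytes than in endoderm by 1.15. All Irf3 and Irf9 ratios were at or under about the median of all genes. Irf2, which opposes Irf1, had 0.278 in hepatocytes, 0.455 in beta cells and 0.625 in endoderm, and its difference in hepatocytes was just short of the threshold. Irf7, the amplifier of type I interferon, was called in no comparison, with 0.543 in hepatocytes, 0.541 in beta cells and 0.926 in endoderm. Irf4, a factor of lymphoid cells, was high throughout, with 2.56 in hepatocytes, 2.16 in beta cells and 1.84 in endoderm.

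The Ifitm genes, membrane proteins known for restricting virus entry, included the lowest hepatocyte ratio and the highest beta cell ratio of the 93 genes, both at Ifitm3. It had ratios of 0.0158 in hepatocytes, 6.09 in beta cells and 0.533 in endoderm, at rank percentiles of 0.997, 98.4 and 35.3 in that order. It was lower than in endoderm in hepatocytes (-2.80) and higher than in endoderm in beta cells (3.35). Between the adult cell types its difference was -6.15, and 73 of 24466 genes had differences as low or lower. The hepatocyte value is close to the bottom of its column, so the pseudocount limits both differences that use it. Ifitm5, known from bone-forming cells, had 0.0166 in hepatocytes, 1.15 in beta cells and 0.443 in endoderm, with the same signs and the same limit.

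The neighbours of Ifitm3 differed from it. Ifitm2 had 0.328 in hepatocytes, 0.267 in beta cells and 1.67 in endoderm and was lower in both adult cell types. Ifitm1 had 1.51 in hepatocytes, 2.15 in beta cells and 0.168 in endoderm and was higher in both. Ifitm6, next to Ifitm3, was lowest in beta cells, with 0.787 in hepatocytes, 0.0693 in beta cells and 0.426 in endoderm, and was the largest of the 6 genes called higher in hepatocytes than in beta cells (2.61). Outside this cluster, Ifitm7 had 0.645 in hepatocytes, 2.07 in beta cells and 2.06 in endoderm, lower in hepatocytes, and Ifitm10 had 2.02 in hepatocytes, 1.26 in beta cells and 1.79 in endoderm, called in no comparison.

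**Figure D4:**
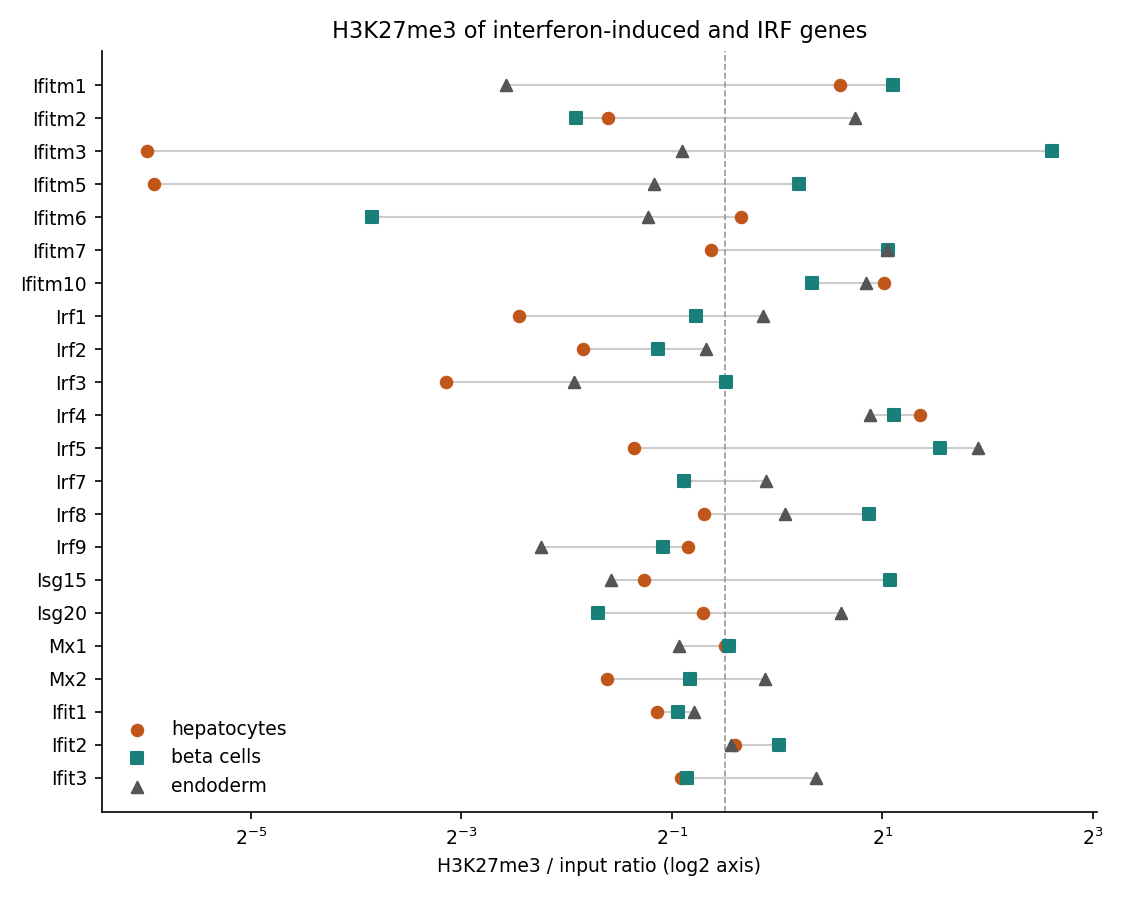
H3K27me3 to input ratio (log2 axis) of the Ifitm, Isg, Mx and Ifit genes and the Irf genes described here, in hepatocytes (circles), beta cells (squares) and endoderm (triangles), 1 gene per line. Ifitm3 spans from 0.0158 in hepatocytes to 6.09 in beta cells, and Irf5 from 0.391 in hepatocytes to 3.76 in endoderm.

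Isg15, a ubiquitin-like modifier, had 0.416 in hepatocytes, 2.11 in beta cells and 0.334 in endoderm, at a rank percentile of 89.6 in beta cells. Its beta cell difference from endoderm was 2.43. Isg20, an RNA exonuclease, showed the opposite order, with 0.612 in hepatocytes, 0.306 in beta cells and 1.52 in endoderm, and was lower in both adult cell types. Mx2, a dynamin-like antiviral GTPase, was lower in hepatocytes, with 0.326 in hepatocytes, 0.561 in beta cells and 0.920 in endoderm, and its paralog Mx1 was called in no comparison, with 0.711 in hepatocytes, 0.728 in beta cells and 0.522 in endoderm. Of the Ifit genes, which bind viral RNA, Ifit3 was lower in both adult cell types, with 0.530 in hepatocytes, 0.552 in beta cells and 1.29 in endoderm. Ifit1 (0.454 in hepatocytes, 0.520 in beta cells and 0.577 in endoderm) and Ifit2 (0.758 in hepatocytes, 1.01 in beta cells and 0.737 in endoderm) were not called.

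The Oas genes, a family known for making the oligoadenylate that activates RNase L, had higher ratios in the adult cells. Against endoderm, hepatocytes had 5 of 10 genes higher and 0 lower, and beta cells had 3 higher and 0 lower, with median differences of 1.00 and 0.69. Over all genes 12.8% were higher in hepatocytes and 14.1% in beta cells. After division the Oas counts were 7 and 5 of 10 higher, and at a 3-fold threshold 2 and 1. Oas1h had 2.09 in hepatocytes, 1.99 in beta cells and 0.582 in endoderm. Oas1d had 2.12 in hepatocytes, 2.45 in beta cells and 0.826 in endoderm. Oas1a, an enzymatically active member, had 1.34 in hepatocytes, 1.18 in beta cells and 0.528 in endoderm. All 3 were higher in both adult cell types, and Oas1g (1.46 in hepatocytes, 0.809 in beta cells and 0.434 in endoderm) and Oas1f (2.20 in hepatocytes, 1.78 in beta cells and 0.870 in endoderm) in hepatocytes. Oas1b (0.576 in hepatocytes, 1.04 in beta cells and 0.676 in endoderm), Oas1c (0.813 in hepatocytes, 0.677 in beta cells and 0.557 in endoderm) and Oas1e (1.70 in hepatocytes, 1.61 in beta cells and 1.68 in endoderm) were called in no comparison, and Oas3 was high throughout, with 2.60 in hepatocytes, 1.61 in beta cells and 1.50 in endoderm. Oas2 had 2.18 in hepatocytes, 0.977 in beta cells and 1.36 in endoderm and was higher in hepatocytes than in beta cells (1.10). All 10 stand in 1 run of the annotation and are close paralogs, so reads may be shared among the Oas1 genes.

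The guanylate-binding proteins, GTPases that attack the vacuoles of intracellular pathogens, lie in a pair of clusters. The cluster of Gbp4, Gbp6, Gbp8, Gbp9, Gbp10 and Gbp11 gave 0 calls against endoderm in either adult cell type as deposited. After division Gbp11 was higher in beta cells (1.05). Over all genes 13.3% were lower and 12.8% higher in hepatocytes, and 15.1% and 14.1% in beta cells. A count of 0 in 6 genes thus says little about this cluster. Its medians were 0.634 in hepatocytes, 1.07 in beta cells and 1.01 in endoderm, and Gbp11 was lower in hepatocytes than in beta cells (0.547 and 1.36). In the other cluster, Gbp7 had 0.559 in hepatocytes, 1.49 in beta cells and 1.32 in endoderm, lower in hepatocytes. Gbp3 had 0.806 in hepatocytes, 0.612 in beta cells and 1.63 in endoderm, lower in beta cells. Gbp5, which also acts in inflammasome assembly, had 2.25 in hepatocytes, 0.967 in beta cells and 1.03 in endoderm, higher in hepatocytes. Gbp2 was not called, with 0.959 in hepatocytes, 0.920 in beta cells and 1.43 in endoderm. The calls of Gbp7 and Gbp3 against endoderm were lost after division.

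Against endoderm, 14 of 39 further interferon-induced genes had lower ratios in hepatocytes and 2 had higher ones, and in beta cells 7 were lower and 6 higher. Between the adult cell types 8 were lower in hepatocytes and 0 higher (20.5% and 0%), where all genes gave 12.5% and 13.1%. The lower share in hepatocytes against endoderm was 35.9%, where all genes gave 13.3%. In beta cells 17.9% were lower and 15.4% higher, near the 15.1% and 14.1% of all genes. Of the chemokine genes on this list, Cxcl11 had ratios of 0.0733 in hepatocytes, 1.41 in beta cells and 0.674 in endoderm, and Cxcl10 had 0.256 in hepatocytes, 2.85 in beta cells and 2.81 in endoderm. Cxcl9 had 0.220 in hepatocytes, 1.14 in beta cells and 0.377 in endoderm and was higher in beta cells than in endoderm and lower in hepatocytes than in beta cells. Ifi47, an immunity-related GTPase, had 0.203 in hepatocytes, 2.28 in beta cells and 1.15 in endoderm, and the receptor chaperone Rtp4 had 0.247 in hepatocytes, 1.13 in beta cells and 1.67 in endoderm. Cxcl10, Cxcl11, Ifi47 and Rtp4 were lower in hepatocytes than in either other cell type. Dtx3l, a ubiquitin ligase, had 0.274 in hepatocytes, 0.433 in beta cells and 1.55 in endoderm, and its partner Parp9 had 0.387 in hepatocytes, 0.395 in beta cells and 0.922 in endoderm, each lower in both adult cell types. Parp9 (-1.12 in hepatocytes and -1.09 in beta cells) lay close to the threshold, and division moved the median of all genes up by 0.41 and 0.39.

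Of 28 further genes of antigen presentation, 7 were lower and 2 higher in hepatocytes than in endoderm, 5 were lower and 6 higher in beta cells, and 10 were lower and 2 higher in hepatocytes than in beta cells. The lower share in hepatocytes against endoderm was 25%, where all genes gave 13.3%. In beta cells the lower share, 17.9%, was near the 15.1% of all genes, and the higher share was 21.4%, beside 14.1%. For hepatocytes against beta cells the lower share was 35.7%, where all genes gave 12.5%. Tapbpl, a peptide editor related to tapasin, had 0.384 in hepatocytes, 0.373 in beta cells and 1.65 in endoderm, lower in both adult cell types, whereas tapasin itself (Tapbp) was called in no comparison, with 0.330 in hepatocytes, 0.494 in beta cells and 0.475 in endoderm. Psmb10, the remaining immunoproteasome subunit, had 0.109 in hepatocytes, 0.985 in beta cells and 0.442 in endoderm and thus did not share the high endoderm ratio of Psmb8 and Psmb9. The proteasome activators Psme1 (0.140 in hepatocytes, 0.369 in beta cells and 0.750 in endoderm) and Psme2 (0.0938 in hepatocytes, 0.378 in beta cells and 0.829 in endoderm) were lower in hepatocytes. Cd74, the class II invariant chain, had 0.691 in hepatocytes, 0.696 in beta cells and 0.236 in endoderm and was higher in both adult cell types. Rfxap, a subunit of the factor that binds MHC promoters, had 0.120 in hepatocytes, 0.112 in beta cells and 0.885 in endoderm.

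Of 16 genes for interferon receptors and JAK-STAT signalling, 2 were lower and 0 higher in hepatocytes than in endoderm, and 3 were lower and 1 higher in beta cells. The lower shares, 12.5% in hepatocytes and 18.8% in beta cells, were near those of all genes (13.3% and 15.1%). The receptor genes Ifnar1 (0.461 in hepatocytes, 0.658 in beta cells and 0.505 in endoderm) and Ifngr1 (0.345 in hepatocytes, 0.506 in beta cells and 0.334 in endoderm) were under the median of all genes in every cell type. Socs1, a feedback inhibitor of interferon signalling, had 0.905 in hepatocytes, 0.283 in beta cells and 5.74 in endoderm, and the related Socs3 had 0.197 in hepatocytes, 0.181 in beta cells and 1.82 in endoderm. Socs1 and Socs3 were each called lower in hepatocytes and in beta cells than in endoderm.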

How the data were processed

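ChIP-seq for H3K27me3 was read from the authors' table of 24466 genes, which holds ratios of ChIP to input, quantile-normalized over the 3 cell types, per the name and headers of the deposited file. Bowtie2 2.1.0, bedtools and build mm9 are named in the submitters' processing notes. Not given in the sources used here are the region each ratio covers, any added constant and how 2 ChIP and 2 input libraries became 1 value. Depth is unknown, which limits the precision by an amount that cannot be stated. H3K9me3 was not analysed here.

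The members and gene lists were chosen with earlier results of these data known. By rule, the Irf, antigen processing and MHC regulator genes are named with their ratios, except that some single-gene results are not reported here, and from each family up to 4 genes per comparison with the largest called differences. Others, among them genes called in no comparison, were named after their values were seen. Of each further list, up to 4 genes per comparison with the largest called differences were open to naming, and Cd74, Ifnar1, Ifngr1, Mb21d1, Parp9, Psme1, Tapbp, Tapbpl and Tmem173 were chosen after their values were seen. For beta cells the labels spell the mark of the input libraries H3K72me3, which was read as H3K27me3. The pseudocount, 0.0711, is the median ratio divided by 10. With 1 value per cell type no test was run, and limma, planned for replicate columns, was not used. Symbols were matched to RefSeq GRCm38.p6 (90 of 93 directly, 1 by a synonym) for gene order and promoter sequences. The calculation was tested on simulated data. Python 3.11.15, pandas 2.3.3 and numpy 2.4.6 were used. Alternatives were other pseudocounts, thresholds, scalings, rank percentiles and subsets of genes.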

Additional observations from a re-analysis of the deposited data

Results flagged for a closer look

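Ifitm3 and Ifitm5 went in opposite directions in the adult cell types. For Ifitm3 the log2 difference from endoderm was -2.80 in hepatocytes and 3.35 in beta cells. For Ifitm5 it was -2.55 in hepatocytes and 1.25 in beta cells. The hepatocyte ratios of Ifitm3 (0.0158) and Ifitm5 (0.0166) are under the pseudocount, 0.0711, which limits their hepatocyte differences. In ranks, Ifitm5 in hepatocytes differed from endoderm by -21.7 points, short of the 25 required. Each difference rests on 1 value per cell type, so that the difference between the directions was not tested.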

How the results depend on the processing

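No paired analysis was possible because the table holds 1 value per cell type and no column per replicate, and no replicate could be left out. The count of genes lower in hepatocytes than in endoderm (34) was within 1.5 times its value in every setting but 1, and was 17 of 50 without the H2- genes. Higher genes (12) were 2 with the pseudocount 10 times larger and 3 at a 3-fold threshold. In beta cells against endoderm, lower genes (21) were 13 at the 3-fold threshold and 11 of 50 without the H2- genes. Higher genes (12) were 7 above the median level, 7 at the 3-fold threshold and 22 after division by the most frequent value. In hepatocytes against beta cells, lower genes (27) were 15 with the larger pseudocount, 14 at the 3-fold threshold and 13 of 50 without the H2- genes. Higher genes (6) were 1, 2 and 3 in these settings, and 11 where a gap of 25 rank points was required instead. A rank percentile of at least 90 was reached by 11 genes in hepatocytes, 25 in beta cells and 28 in endoderm, and one of at least 75 by 31, 47 and 50. Median differences moved by less than 0.5, and that of beta cells against endoderm (-0.08) was 0.33 after division and 0.07 without the H2- genes. Counting Oasl1 and Oasl2, or each near-identical H2 pair once (chosen after seeing the data), kept every count within 1.5 times. For single genes the sign of a called difference is no check. Other pseudocounts, thresholds or ranks cannot reverse it, and division shifts it by too little. Calls were lost at 48 of 279 values with the larger pseudocount and 48 at the 3-fold threshold, at 15 after division and at 16 in ranks. Calls were gained at 14 values after division, 21 in ranks and 8 with the smaller pseudocount. The cause was not tested.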

Other observations

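Genes for nucleic acid sensors and their adaptors were lower in hepatocytes than in endoderm at 5 of 18 and higher at 1, and in beta cells lower at 6 and higher at 2. The lower shares were 27.8% and 33.3%, where all genes gave 13.3% and 15.1%. Tlr3, the receptor for double-stranded RNA, had ratios of 0.237 in hepatocytes, 0.372 in beta cells and 1.49 in endoderm, and the adaptor Myd88 had 0.375 in hepatocytes, 0.404 in beta cells and 1.75 in endoderm. The kinase Ikbke had 0.469 in hepatocytes, 0.712 in beta cells and 1.82 in endoderm. These 3 were lower in both adult cell types as deposited. Mb21d1, the DNA sensor cGAS, had 1.69 in hepatocytes, 1.77 in beta cells and 3.53 in endoderm and was lower in hepatocytes than in endoderm, and Tmem173, the STING protein that acts after it, had 1.39 in hepatocytes, 1.50 in beta cells and 1.35 in endoderm, both at a rank percentile of at least 75 in each column. Ikbke in beta cells (-1.27) and Mb21d1 in hepatocytes (-1.03) lay close to the threshold. Division moved the median of all genes up by 0.39 and 0.41 there.

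Interferon genes themselves were higher in hepatocytes than in endoderm at 9 of 21 and lower at 4, and in beta cells higher at 8 and lower at 6. The higher shares were 42.9% and 38.1%, where all genes gave 12.8% and 14.1%. The lower shares, 19% and 28.6%, were above those of all genes as well (13.3% and 15.1%). Ifnb1, the first type I interferon made by many infected cells, had 1.34 in hepatocytes, 1.44 in beta cells and 0.118 in endoderm. Ifna11 had 9.86 in hepatocytes, 1.39 in beta cells and 0.474 in endoderm, the highest hepatocyte ratio of the list, and Ifna12 had 2.09 in hepatocytes, 5.92 in beta cells and 0.307 in endoderm, the highest in beta cells. Ifna15 was among those lower in beta cells, with 2.08 in hepatocytes, 0.356 in beta cells and 2.27 in endoderm. The alpha interferon genes are close paralogs, and reads may be shared among them.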
